A study of Drosophila melanogaster with 6 samples.

Results

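The genes described here are the 34 genes of the eukaryotic translation factors, the soluble proteins that start, extend and end protein synthesis on cytosolic ribosomes, out of 17483 genes in the deposited table. They were chosen by name: each row whose gene identifier carries the current FlyBase symbol of the factor was taken, 33 by that identifier and eEF1alpha1, listed under the retired symbol Ef1alpha48D, by its Entrez number. Of the 34, 26 act in initiation, 6 in elongation and 2 in release. The gene ontology terms in the table name that role for 25 of 26, 6 of 6 and 2 of 2 genes. The exception was eIF2gamma, for which the table lists no translation term.

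Polyadenylated RNA was sequenced from manually dissected Drosophila melanogaster brains, all of the w1118 strain, a common wild-type control with a mutant white eye colour gene, and all 15 days old. There were 3 libraries from flies kept on normal food and 3 from flies whose normal food contained spermidine, a natural polyamine. Dose, sex and the number of brains behind a library are not in the labels, nor do these say that the replicates came from separate cultures, so p-values reflect only how far these 6 libraries scatter, and that scatter may be technical. In bulk brain RNA, a change in the number of cells of a type cannot be told apart from a change in RNA per cell.

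Translation starts when eIF2, carrying the initiator tRNA, joins the small ribosomal subunit together with eIF1, eIF1A, eIF3 and eIF5, and the eIF4 factors bring that complex to the capped end of the messenger RNA. Elongation then cycles between eEF1alpha, which delivers each charged tRNA and is recharged by the eEF1 exchange factors, and eEF2, which moves the ribosome on, until eRF1 reads a stop codon and eRF3 helps to free the protein. Spermidine touches this machinery directly, since it is the donor for the hypusine residue of eIF5A, a factor now called eEF5 in the fly. The comparison of foods asks how far the messenger RNAs of the machinery itself changed with the supplement.

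Values are FPKM, fragment counts scaled for gene length and library size, as the authors deposited them, so levels can be compared between genes. The authors' mean normalized counts summed to 48052547 on normal food against 47904049 with spermidine. Levels per library are in FPKM alone, and the worth of 1 read in barely expressed genes put the relative depth between 0.804 in spermidine food replicate 3 and 1 in normal food replicate 1. All 34 genes had an accepted estimate in all 6 libraries and passed the filter on low values (3 or more libraries with an FPKM of 0.5 or above). The neuronal markers elav, brp, nSyb, Syt1 and para were all present, with a summed level of 1481 to 1563 FPKM on normal food against 1459 to 1469.9 FPKM with spermidine.

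The translation factor genes were abundant, and their order was led by elongation. Averaged over the 6 libraries, eEF1alpha1 had the highest level of the 34, above that of 99.4% of the 10366 genes tested, and eIF6, which keeps free large ribosomal subunits from joining small ones, had the lowest, above 59.8% of them. eEF1alpha1 was followed by eEF2 (mean 740.1 FPKM), the RNA helicase eIF4A (668 FPKM) and eEF1alpha2 (381 FPKM). No library of eEF1alpha1 reached down to the values of eEF2, whereas eEF2 and eIF4A overlapped, and eEF1alpha2 stood clear both of eIF4A above it and of the cap-binding protein eIF4E1 (208 FPKM) below it. From eIF4E1 down to eIF3l, each gene overlapped its neighbour in the order, and so did those from eRF1 to eIF3k and those from eEF1delta to eIF3j. Lower down, eIF2beta, eIF2gamma and eRF3 each stood clear of both neighbours, and eIF6 of eRF3 above it. The 6 elongation factor genes together gave between 40.8% and 45.5% of the summed FPKM of all 34 genes in each library.

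**Figure D1:**
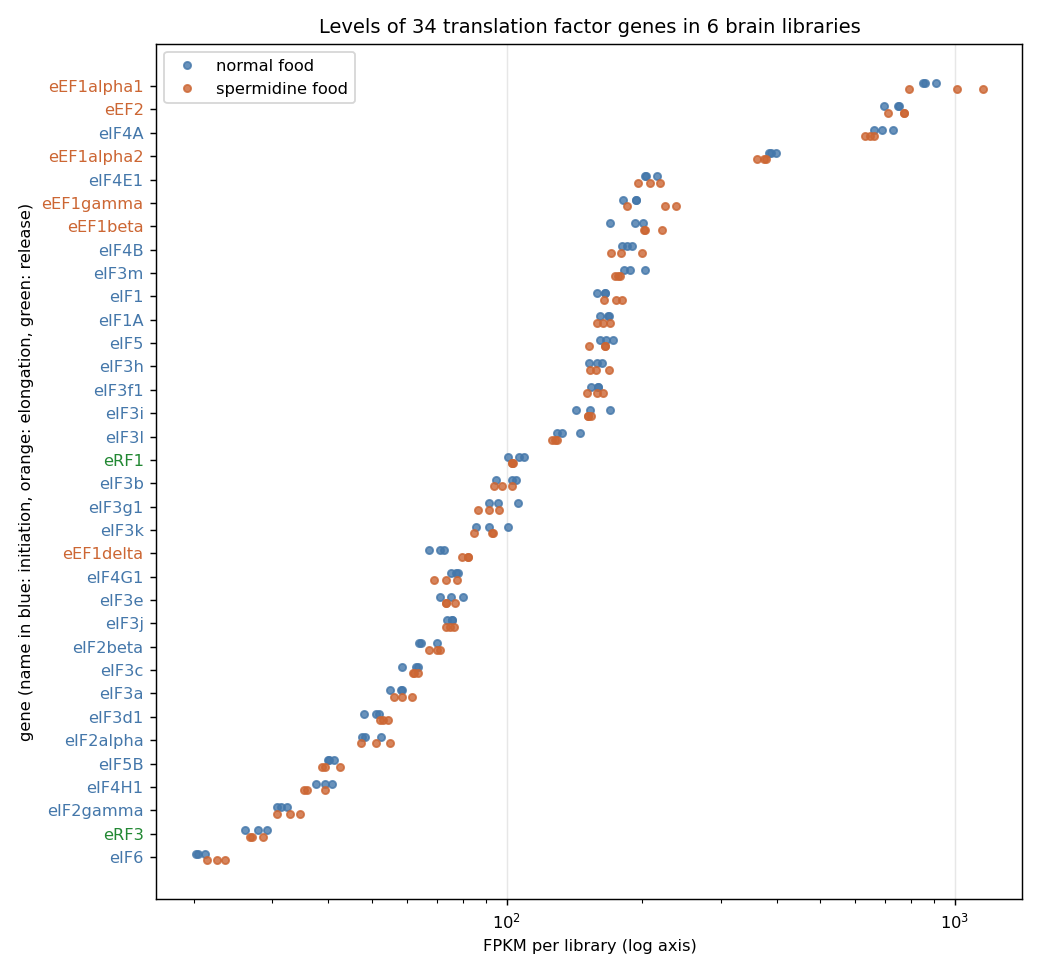
FPKM of each translation factor gene in each library on a log axis, ordered by the mean over all 6 libraries, with normal food in blue and spermidine food in orange. Levels run from eEF1alpha1 at 792 to 1156 FPKM down to eIF6 at 20.2 to 23.5 FPKM, and for most genes the points of the foods lie on top of each other.

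Between foods, limma found that 1 of the 34 genes rose and none fell, which leaves 33 that did not pass. The gene that rose was eEF1delta, which encodes a subunit of the exchange factor that reloads eEF1alpha with GTP. Over all 10366 genes tested, limma on log2(FPKM + 1) called 4.74% (3.21% higher, 1.52% lower) after Benjamini-Hochberg adjustment at 0.05, so 1 gene of 34 was close to the share of the whole table. Neither count held when 1 library was left out, which also leaves the test fewer libraries: with any 1 left out, 0 of the 34 genes and 55 to 322 of all genes passed. At an unadjusted p under 0.05 stood 2 of the 34 genes (eEF1delta and eIF6), against 21.1% of all genes tested. Log2 fold changes of the 34 ranged from -0.11 to 0.21 with a median of -0.01, where the median of all genes tested was 0.02. The 95% interval of the change, taken gene by gene, lay between 20% lower and 25% higher for 31 of the 34 genes, against 6661 of all 10366 genes tested. That wider set includes genes of lower level, which scatter more. The median ratio of highest to lowest library was 1.127 for the 34 genes and 1.218 for all genes tested. It was 1.157 for the 4171 tested genes with a mean FPKM at least that of the lowest of the 34. The genes whose interval went outside those limits were eEF1alpha1, eEF1beta and eEF1gamma, with upper bounds of 0.50, 0.33 and 0.41 on the log2 scale.

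**Figure D2:**
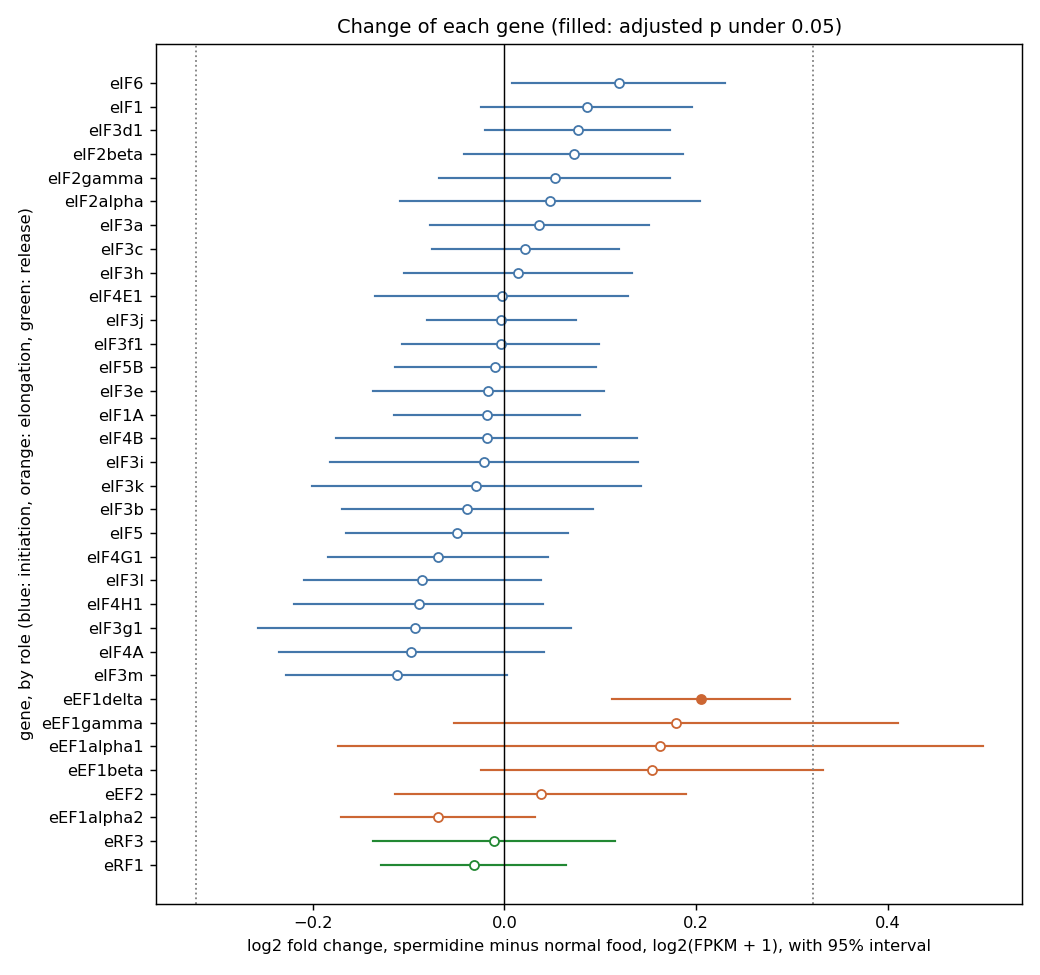
Log2 fold change of each gene on the log2(FPKM + 1) scale, spermidine minus normal food, with its 95% interval from limma; dotted lines mark 20% lower and 25% higher and a filled point an adjusted p under 0.05. Initiation and release factor genes (blue and green) lie around 0, and 5 of the 6 elongation factor genes (orange) lie to the right of it, with eEF1delta as the filled point.

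Grouped by role, the elongation genes had the highest median change, a description to which no test was applied. Of the 6 elongation factor genes, 5 were higher on average with spermidine and their median log2 fold change was 0.16, against 0.02 over all genes tested. Of the 26 initiation factor genes, 9 were higher on average (median -0.01), and both release factor genes had a lower mean, with a median of -0.02. After rescaling the libraries by median ratios, which moved the median of all genes from 0.02 to 0.00, the numbers with a higher mean were 5 of 6, 7 of 26 and 0 of 2. Among all genes tested, 57.6% had a higher mean on spermidine food as deposited, and 5239 of 10366 after rescaling. The elongation median rested in part on 1 library, and was 0.07 without spermidine food replicate 2.

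eEF1delta (FBgn0032198, chromosome arm 2L, 10232507 to 10234450 in the table's gene models) had 70.8, 67.2 and 72.4 FPKM in normal food replicates 1, 2 and 3, and 81.8, 81.7 and 79.5 FPKM in spermidine food replicates 1, 2 and 3. Every spermidine food library lay above every normal food library, and the gap was wider than the spread within either food. Means were 70.2 ± 2.67 and 81.0 ± 1.28 FPKM (SD, n = 3 each), or 0.21 ± 0.04 as a log2 fold change (SE; limma, adjusted p = 0.0399). Its span overlaps no other gene of the table. The call ended when any 1 of the 6 libraries was left out (limma, adjusted p between 0.0691 and 0.121), while the log2 fold change stayed between 0.175 and 0.23, and also without the filter on low values (limma, adjusted p = 0.0581) or without the trend (0.0701). In the authors' deposited table the gene has a fold change of 1.13, and their p-value, adjusted over the same 10366 genes, was 0.000667.

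The partners of eEF1delta in the exchange complex differed less evenly and did not pass the test. eEF1beta, a second exchange subunit, had 201, 170.4 and 193 FPKM on normal food against 202, 203 and 222 FPKM with spermidine in replicates 1, 2 and 3. The foods did not overlap, but only just (replicate 1 of each food), and the log2 fold change of 0.15 ± 0.07 (SE) did not pass the test (limma, adjusted p = 0.304). eEF1gamma, the structural subunit, had 194, 182 and 195 FPKM on normal food against 186, 238 and 226 FPKM with spermidine. Spermidine food replicate 1 lay among the normal food libraries and the other two lay above them (log2 fold change 0.18 ± 0.10, SE; limma, adjusted p = 0.353). The change was 0.11 without replicate 2 and 0.29 without replicate 1 of spermidine food.

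The 2 genes for eEF1alpha pointed in opposite directions without either passing the test. eEF1alpha1 (chromosome arm 2R, 11891135 to 11895762), the more abundant of the pair, had 847, 857 and 907 FPKM on normal food against 792, 1156 and 1009.5 FPKM with spermidine. Its spread on spermidine food was the widest of the 34 genes, with the lowest library of all 6 in replicate 1 and the highest in replicate 2, and the log2 fold change of 0.16 ± 0.14 (SE) was within that spread (limma, adjusted p = 0.559). It was 0.04 without spermidine food replicate 2 and 0.31 without replicate 1. eEF1alpha2 (chromosome arm 3R) had 399, 389 and 384 FPKM on normal food against 376, 361 and 379.7 FPKM with spermidine, lower in every spermidine food library, with a log2 fold change of -0.07 ± 0.04 (SE; limma, adjusted p = 0.405). eEF1alpha1 made up 68.0%, 68.8% and 70.2% of the FPKM of the pair on normal food against 67.8%, 76.2% and 72.7% with spermidine. Those shares overlapped, and the difference of 3.21 percentage points gave p = 0.4 in a two-sided exact permutation test over libraries, for which 3 against 3 libraries cannot give a p under 0.1. With 1 library left out the difference lay between 1.23 points (without spermidine food replicate 2) and 5.42 points (without replicate 1).

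eEF2, the translocation factor, had 749, 694 and 747 FPKM on normal food against 708, 772 and 769.7 FPKM with spermidine. The foods overlapped (log2 fold change 0.04 ± 0.06, SE; limma, adjusted p = 0.782). Relative to the summed eEF1alpha level, eEF2 was at 0.579 ± 0.022 on normal food against 0.556 ± 0.049 with spermidine (SD, n = 3 each; two-sided exact permutation test, p = 0.6).

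**Figure D3:**
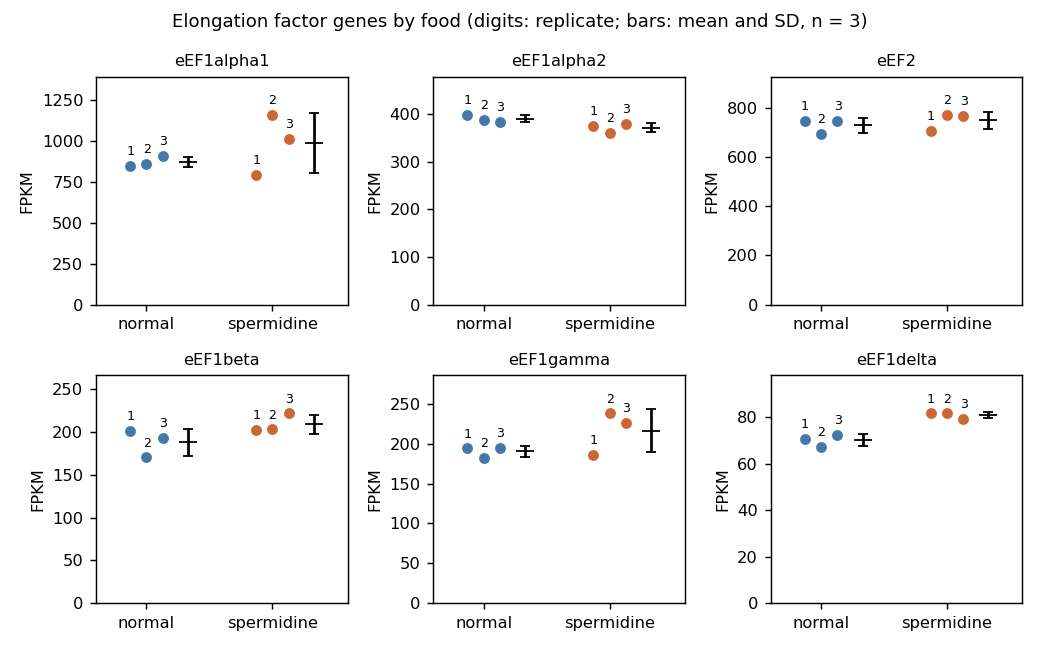
FPKM of the 6 elongation factor genes, with a point for each library marked by its replicate number and bars for mean and SD (n = 3). In eEF1delta all spermidine food points lie above the normal food points, while in eEF1alpha1, eEF1gamma and eEF2 the spermidine food point of replicate 1 lies within or below their range.

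Spermidine food replicate 1 stood apart from replicates 2 and 3 in eEF1alpha1, eEF1gamma and eEF2. The median deviation of the 6 elongation genes from their own means was -0.04 in that library on the log2(FPKM + 1) scale, against 0.09 and 0.10 in replicates 2 and 3, and it was -0.02, -0.13 and -0.03 in the normal food replicates 1, 2 and 3. Normal food replicate 2 was also the lowest library over all genes tested, at -0.04. The initiation genes ranged from -0.04 to 0.04 and the release genes from -0.06 to 0.05, with the lowest value of both in normal food replicate 2. Of 9 fat body markers, 8 were in the table and 4 of 6 tested rose (fit, Yp1, Yp2 and Yp3), with a summed level of 1909.5 to 2511 FPKM on normal food against 9629 to 10639 FPKM with spermidine. Fbp2 was at 0 in all 6 libraries and Fbp1 did not exceed 0.255 FPKM. The summed level of 6 photoreceptor markers was 1452, 9871 and 6259 FPKM in normal food replicates 1, 2 and 3 and 9083 to 12640.3 FPKM on spermidine food. Glial markers summed to 1299 to 1442 and 1437 to 1514 FPKM on the foods in the same order, haemocyte markers to 61.3 to 71.9 and 70.4 to 75.5 FPKM, and muscle markers to 6.96 to 29.2 and 5.58 to 17.7 FPKM. The summed germline markers reached 1.09 FPKM on normal food and 1.2 FPKM with spermidine, with osk at or below 0.0496 FPKM. The part of these other tissues in the change of eEF1delta or of the elongation group was not tested.

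**Figure D4:**
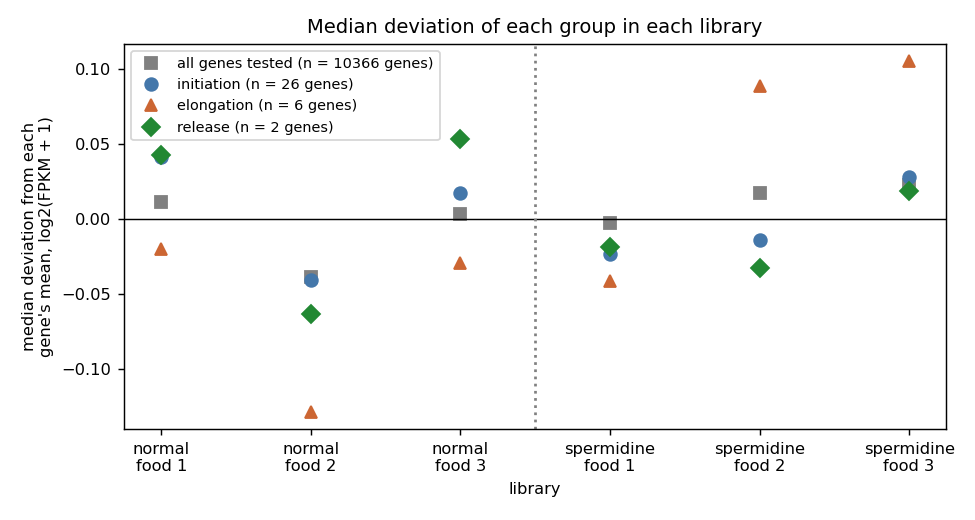
Median deviation of each group of genes from each gene's own mean over the 6 libraries, on the log2(FPKM + 1) scale, for initiation, elongation and release factor genes and for all genes tested (grey). Elongation genes lie highest in spermidine food replicates 2 and 3 and lowest in normal food replicate 2, and spermidine food replicate 1 lies with the normal food libraries.

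Log2 fold changes of the initiation factor genes ranged from -0.11 to 0.12. Of these 26 genes, none rose and none fell in limma, against 3.21% and 1.52% of all genes tested. At those shares, 0 of 26 does not set these genes apart. In 2 of them (eIF3d1 and eIF6) every spermidine food library lay above every normal food library, and in 1 (eIF3m) below. Over all 34 genes, 4 did not overlap on the higher side and 2 on the lower side, against 17.2% and 10.8% of all genes tested, so neither count was above the share of the whole table. For all 26 the 95% interval stayed between 20% lower and 25% higher, against 6661 of all 10366 genes tested, a set that includes genes of lower level. At an unadjusted p under 0.05 stood 1 of them (eIF6), against 21.1% of all genes tested, and 3 were lower in the authors' deposited table, against 8.7%.

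The 3 subunits of eIF2, the factor that carries the initiator tRNA, had slightly higher means on spermidine food, as did 57.6% of all genes tested. Log2 fold changes were 0.05 for eIF2alpha, the subunit that stress kinases phosphorylate, 0.07 for eIF2beta and 0.05 for eIF2gamma, the GTPase subunit, with adjusted p-values from 0.443 to 0.730 (limma). Over the 6 libraries eIF2alpha ranged from 47.3 to 54.7 FPKM, eIF2beta from 63.7 to 71.1 FPKM and eIF2gamma from 30.8 to 34.5 FPKM, and the foods overlapped in each. eIF2beta was the most abundant, at 2.09 ± 0.12 times the level of eIF2gamma on normal food against 2.12 ± 0.09 times with spermidine (SD, n = 3 each). The value of eIF2gamma is uncertain, because the gene Su(var)3-9 lies within its span on the same strand, at 2.59 to 3.03 FPKM. eIF1 had 159, 166 and 165 FPKM on normal food against 175, 181 and 165 FPKM with spermidine, with the third spermidine food library among the normal food values. eIF1A, its partner in start codon selection, ranged from 159 to 169.6 FPKM and differed by -0.02 on the log2 scale. Neither passed the test (limma, adjusted p = 0.349 and 0.835).

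Of the 13 genes of eIF3, the large scaffold on which the initiation complex assembles, 4 had a higher and 9 a lower mean on spermidine food, or 2 and 11 after rescaling by median ratios. Over all genes tested, 57.6% had a higher mean, or 5239 of 10366 after rescaling. None of the 13 passed the test in limma, against 4.74% of all genes tested. At an unadjusted p under 0.05 there was none, against 21.1%, and 1 (eIF3m) was lower in the authors' deposited table, against 8.7%. The subunits were not present at equal levels: eIF3m was the highest and eIF3d1 the lowest in every library. eIF3m had 203, 183 and 189 FPKM on normal food against 174, 179 and 177 FPKM with spermidine, lower in every spermidine food library (log2 fold change -0.11 ± 0.05, SE; limma, adjusted p = 0.249). eIF3d1, a subunit that can itself bind the cap in mammals, had 51.9, 48.1 and 51.0 FPKM on normal food against 52.9, 52.2 and 54.3 FPKM with spermidine, higher in every spermidine food library (log2 fold change 0.08 ± 0.04, SE; limma, adjusted p = 0.343). With the top subunit lower and the bottom one higher, the ratio of highest to lowest subunit was 3.91, 3.79 and 3.70 on normal food against 3.30, 3.43 and 3.26 with spermidine. That the foods did not overlap in this ratio follows from the separation of those 2 genes alone, and no test was applied to it. Over all 13 subunits, the SD between subunits was 43.39%, 42.92% and 41.93% of their mean on normal food. With spermidine it was 40.25%, 41.99% and 41.10%, so the foods overlapped. eIF3h, eIF3f1 and eIF3i lay together with eIF3m between 142 and 203 FPKM in every library, and eIF3l followed at 126 to 146 FPKM. A middle tier of eIF3b, eIF3g1 and eIF3k lay between 84.7 and 106 FPKM. Below it, eIF3e lay at 71.0 to 79.8 FPKM and eIF3j, a loosely bound subunit with the narrowest range of the 34 genes (highest library 1.04 times the lowest), at 73.1 to 76.3 FPKM. The large subunits eIF3a and eIF3c stood at 54.8 to 61.4 and 58.5 to 63.4 FPKM.

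The genes of the eIF4 group, which bind and unwind the capped end, all had a lower mean on spermidine food, with and without rescaling, and none passed the test in limma or had an unadjusted p under 0.05. Over all genes tested, 57.6% had a higher mean, or 5239 of 10366 after rescaling. Of the same genes, 4.74% passed in limma and 21.1% had an unadjusted p under 0.05. eIF4A had 728, 658 and 687 FPKM on normal food against 630.2, 645 and 662 FPKM with spermidine. Spermidine food replicate 3 was a little above normal food replicate 2, so the foods overlapped (log2 fold change -0.10 ± 0.06, SE; limma, adjusted p = 0.396). eIF4H1, whose mammalian counterpart aids the helicase, had 40.7, 37.5 and 39.3 FPKM on normal food against 35.3, 35.9 and 39.2 FPKM with spermidine, with replicate 3 among the normal food values (log2 fold change -0.09 ± 0.05, SE; limma, adjusted p = 0.405). The scaffold eIF4G1, the only member on chromosome 4, ranged from 68.9 to 77.7 FPKM, the helicase cofactor eIF4B from 170.5 to 200.6 FPKM and eIF4E1 from 196 to 220.3 FPKM. Their log2 fold changes were -0.07, -0.02 and -0.00, all with overlapping foods. The level of eIF4A was 9.42, 8.75 and 8.84 times that of eIF4G1 on normal food against 8.16, 8.80 and 9.60 times with spermidine, with the foods overlapping.

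Of the factors that act at the end of initiation, eIF5, the GTPase activator of eIF2, and eIF5B, which joins the ribosomal subunits, differed by -0.05 and -0.01 on the log2 scale (limma, adjusted p = 0.61 and 0.926). They ranged from 153 to 173 FPKM and from 38.8 to 42.4 FPKM, with overlapping foods. eIF6 had 21.2, 20.2 and 20.5 FPKM on normal food against 21.4, 22.6 and 23.5 FPKM with spermidine. Every spermidine food library was higher, with a log2 fold change of 0.12 ± 0.05 (SE; limma, adjusted p = 0.213). The whole of eIF6 lies inside the span of ytr on the same strand, so reads of the pair may have been shared, and ytr had 66.2 to 77.3 FPKM on normal food against 59.4 to 61.4 FPKM with spermidine. The division of reads between them was not tested.

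The release factors overlapped between foods. eRF1, which recognises all stop codons, had 109, 100.5 and 106 FPKM on normal food against 103, 102.5 and 103 FPKM with spermidine (log2 fold change -0.03 ± 0.04, SE; limma, adjusted p = 0.699). The GTPase eRF3 had 27.8, 26.1 and 29.1 FPKM on normal food against 27.0, 26.7 and 28.6 FPKM with spermidine (log2 fold change -0.01 ± 0.05, SE; limma, adjusted p = 0.927). The level of eRF1 was 3.81 ± 0.15 times that of eRF3 on normal food against 3.76 ± 0.14 times with spermidine (SD, n = 3 each). A stretch of 425 bases of eRF1 is shared with CG5618 on the same strand.

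The authors' deposited table gives, for each gene, a fold change and a p-value beside mean normalized counts of the same 6 libraries, and calls more genes: after adjustment of its p-values over the 10366 genes tested, 16.9% passed, 8.2% higher and 8.7% lower. Of the 34 translation factor genes, 4 passed there, 1 higher and 3 lower. In the authors' deposited table eEF1delta was the higher one, and the lower ones were eIF4H1 with a fold change of -1.11 and an adjusted p of 0.00801, eIF4A with -1.1 and 0.0107, and eIF3m with -1.09 and 0.0167. In the authors' deposited table the means of eIF4A were 54291 and 49127 normalized counts on normal and spermidine food, and eEF1gamma and eEF1beta had fold changes of 1.12 and 1.1 (adjusted p = 0.0776 and 0.07). The eIF4A, eIF4H1 and eIF3m calls were not made by limma on FPKM, where their adjusted p-values lay between 0.249 and 0.405.

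**Figure D5:**
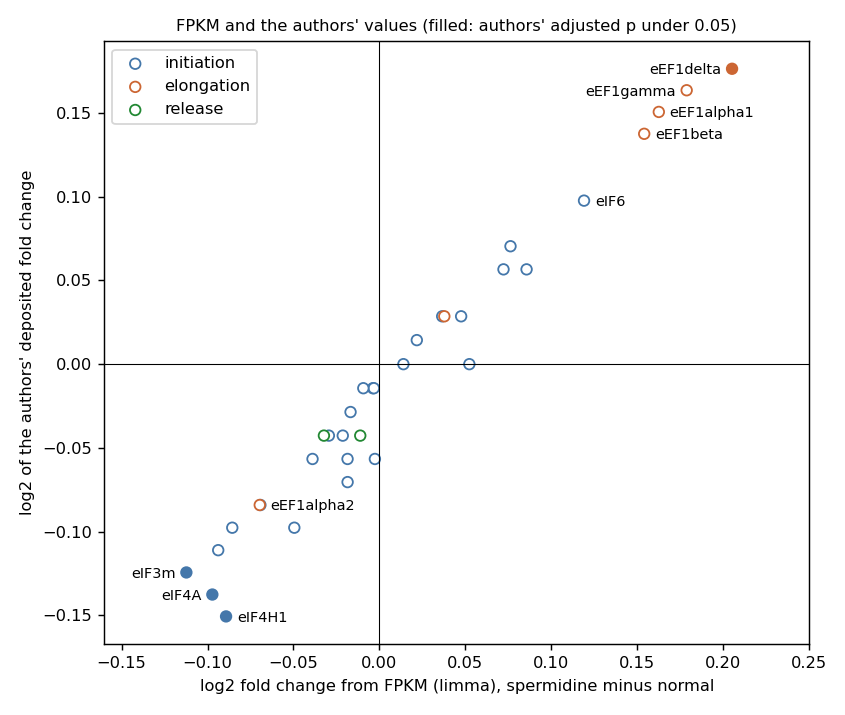
Log2 fold change of each gene from FPKM by limma (x axis) against the log2 of the fold change in the authors' deposited table (y axis), spermidine against normal food; both come from the same 6 libraries, and filled points have an adjusted p under 0.05 in the authors' values. The 4 filled points are eEF1delta at the top right and eIF3m, eIF4A and eIF4H1 at the bottom left.

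Related genes of the pathway, which were not among the 34, were examined by list. Several factors have a second gene in the fly. eIF3d1, eIF3f1, eIF3g1 and eIF4H1 each gave at least 99.7% of the summed FPKM of their pair in every library, since eIF3d2, eIF3f2, eIF3g2 and eIF4H2 did not exceed 0.441 FPKM. In the cap-binding family eIF4E1 gave 72.3% to 75.2% of the FPKM of 7 genes, and most of the rest came from eIF4EHP, a repressor that binds the cap without recruiting eIF4G. eIF4EHP had 67.7, 67.8 and 64.6 FPKM on normal food against 61.1, 60.4 and 53.8 FPKM with spermidine, lower in every library (log2 fold change -0.19 ± 0.06, SE; limma, adjusted p = 0.125), and it passed in the authors' deposited table (fold change -1.11, adjusted p = 0.0497). eIF4G1 gave 68.2% to 73.6% of the FPKM of its pair with eIF4G2. kra, a relative of eIF5, had 267, 270.3 and 276 FPKM on normal food against 331, 302 and 289.6 FPKM with spermidine, higher in every library without passing the test (limma, adjusted p = 0.142).

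In limma none of the 57 other translation genes tested passed, against 4.74% of all genes tested. At an unadjusted p under 0.05 stood 11 of the 57, against 21.1% of all genes tested. Past the threshold in the authors' deposited table were 5 higher and 1 lower (8.2% and 8.7% of all genes tested). The 18 initiation relatives held 10 genes above the filter (median log2 fold change 0.09), and the 10 regulators of initiation, among them the eIF2B exchange factor and the eIF2alpha kinases Gcn2 and PEK, had a median of 0.00. Thor, the inhibitor of eIF4E1, had the smallest p of the regulators, at 40.6 ± 4.69 FPKM on normal food against 34.6 ± 4.52 FPKM with spermidine (SD, n = 3 each; limma, adjusted p = 0.331), followed by PPP1R15, which directs dephosphorylation of eIF2alpha (limma, adjusted p = 0.621). Of the 9 further elongation and recycling genes (median 0.07), HBS1, a ribosome rescue factor, and eEF5, the carrier of hypusine, had the smallest p (limma, adjusted p = 0.306 and 0.323). The 20 aminoacyl-tRNA synthetases, which charge tRNAs with their amino acids, had a higher mean on spermidine food in 19 genes, or 17 after rescaling, with a median of 0.07, where 57.6% of all genes tested, or 5239 of 10366 after rescaling, had a higher mean. Of these 20, 8 were at an unadjusted p under 0.05 and none passed after adjustment in limma, while 5 were higher in the authors' deposited table, against 8.2% of all genes tested. GlnRS had 12.8 ± 0.865 FPKM on normal food against 15.1 ± 0.591 FPKM with spermidine (SD, n = 3; limma, adjusted p = 0.101), and AspRS had 7.24, 8.70 and 9.27 against 10.6, 10.4 and 11.3 FPKM (limma, adjusted p = 0.105). In both the foods did not overlap. Among 8 factors of mitochondrial translation the median was 0.04, and mEFTu2 and mIF3 had the smallest p (limma, adjusted p = 0.223 and 0.312).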

How the data were processed

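Trizol extraction was followed by a stranded mRNA library kit with an input of 100 ng, per the labels' protocols. HTSeq, Cufflinks and DESeq are named, without roles, per the submitters' processing notes; no source used here names the aligner or the genome build. Per the file headers, gene models came from Ensembl release 82, and 99.8% of 17142 genes lay at the same place within 2000 bases in the current fly annotation. The authors deposited FPKM for each library with a status. They also deposited food means of normalized counts (used as a signal), a signed fold change (used as a score, since none lies between -1 and 1) and unadjusted p-values. Of 11 deposited sheets, the full one was used.

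From these, log2(FPKM + 1) values were tested two-sided with limma 3.58.1 (R 4.3.3; trend in the prior variance, no covariates) and adjusted by the Benjamini-Hochberg method over 10366 genes, those of accepted status in all libraries with 3 or more of 6 at an FPKM of 0.5 or above. Adding 1 understates changes of genes of low FPKM. Precision rests on 3 libraries per food, and no counting intervals are given because counts per library were not used here. The fit was tested on simulated data with 50 genes changed at each fold. The changed genes were all raised and came from genes above a minimum level. Noise was normal and independent, at the variances the fit had estimated. In that setting the fit recovered 52% of the changes of 1.25-fold, 86% of 1.5-fold, 94% of 2-fold and 100% of 4-fold, with 8 false calls. The real calls went in both directions, so these rates need not hold for the real libraries. Changes under 1.25-fold were not simulated, so a gene that did not pass may still have changed by a small amount. Members, lists and filter were chosen with earlier results of these data known. All members are named, and of each other translation list the 2 genes with the smallest p. Other genes (ytr, Su(var)3-9, CG5618, eIF3d2, eIF3f2, eIF3g2, eIF4H2, eIF4G2 and tissue markers) were named for their relation to a member or to a value beside it, after their values were seen. A listed symbol with no row under that name was not analysed here. The alternatives changed the pseudocount, filter, scaling, trend or p-values (the authors'), added a replicate block, or dropped single libraries. A planned count of promoter letters was not made.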

Additional observations from a re-analysis of the deposited data

How the results depend on the processing

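Of 34 genes, 30 kept their direction or stayed uncalled on the same side of the threshold under all 12 alternatives. The exceptions were eEF1delta, whose call ended in 9 of them, and eIF4H1, eIF4A and eIF3m, which passed with the authors' p-values. The number of translation factor genes past the threshold, 1 as reported, was 0 without the filter on low values, 0 without the trend, 0 with each library left out (range 0 to 0) and 4 with the authors' p-values. The number of all genes past it, 491 as reported, was 261 without the filter, 1752 with the authors' p-values, and 55 to 322 with a library left out (55 without spermidine food replicate 3, 177 without spermidine food replicate 1). The adjusted p of eEF1delta was 0.0581 without the filter and 0.0701 without the trend in limma. With a library left out, the median log2 fold change ranged from 0.073 to 0.19 for elongation, from -0.03 to 0.02 for initiation and from -0.06 to -0.00 for release genes, and the difference in the eEF1alpha1 share from 1.23 to 5.42 percentage points. The causes were not tested.

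With the replicate number as a block, 257 genes and 0 translation factor genes passed (eEF1delta at an adjusted p of 0.11 in limma), and the exact sign-flip test of the eEF1alpha1 share gave p = 0.5. With 3 pairs of libraries that sign-flip test cannot give a p under 0.05. Same-numbered libraries did not deviate together (r = -0.051, -0.103 and 0.018 across genes), and pairs of unlike number gave r from -0.093 to 0.12. With 3 libraries per food, these values cannot show whether same-numbered libraries shared a day or batch. Where a standard error or interval is given with a change, it measures scatter between 3 libraries per food. In it, the variance of each gene is drawn toward the trend over all genes tested. Sequencing depth enters only through that scatter, since no counts per library were used. The planned count of promoter letters was not run.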
